A study of Mus musculus with 8 samples.

Results

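The gonadal steroid receptor genes *Esr1*, *Esr2*, and *Pgr* and the aromatase gene *Cyp19a1* were followed through 4 hypothalamic nuclei of the female mouse. They are 4 of 20284 genes to which probes of the array could be matched, and all probes with a RefSeq accession of one of them were taken, 7 of 55681. *Esr1* had 3 probes, *Pgr* 2, and *Esr2* and *Cyp19a1* 1 each. The nuclei were the arcuate (Arc), ventromedial (VMH), dorsomedial (DMH), and lateral (LH) regions of the hypothalamus, cut by laser from brain sections of 2 C57BL/6J females (C57BL/6 in the labels) aged 3 months that carried no allele or treatment the labels name. Each nucleus was measured on 2 arrays, 8 in all, with amplified RNA read in 1 color. The stage of the estrous cycle is not given in the sources used here, nor is the mouse behind each array, so the p-values below measure only the spread between these samples, which may be partly technical.

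*Esr1* and *Esr2* encode the nuclear receptors for estradiol, estrogen receptor α and β, which bind DNA as dimers and switch target genes when the hormone is bound. One of the classic targets of estrogen receptor α is *Pgr*, the gene of the progesterone receptor, and aromatase makes estradiol from androgens. In the hypothalamus, these receptors are known for relaying ovarian hormones to the circuits of reproduction, sexual behavior, and energy balance, and neurons of the Arc and of the ventrolateral VMH are among the cells known to carry estrogen receptor α.

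The sequences around the start sites of *Esr1* and *Pgr* are given because these were the members whose signals differed between nuclei. They are from RefSeq (GRCm38.p6), run 5′ to 3′ on the strand of the gene, cover 250 bases before and 50 bases after the start of a transcript, and capitals mark matches to the motifs described after them. *Esr1* spans chr10:4611989-5005633, and its table of start sites held 2 windows, chr10:4611739-4612038 and chr10:4709908-4710207 on the plus strand. *Pgr* spans chr9:8898900-8968611, and its window was chr9:8899583-8899882 on the plus strand.
Esr1 start 1: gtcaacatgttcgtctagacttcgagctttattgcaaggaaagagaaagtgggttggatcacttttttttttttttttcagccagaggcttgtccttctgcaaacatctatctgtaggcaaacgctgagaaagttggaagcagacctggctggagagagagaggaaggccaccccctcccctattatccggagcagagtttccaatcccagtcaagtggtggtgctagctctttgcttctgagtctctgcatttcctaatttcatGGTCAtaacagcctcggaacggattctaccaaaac
Esr1 start 2: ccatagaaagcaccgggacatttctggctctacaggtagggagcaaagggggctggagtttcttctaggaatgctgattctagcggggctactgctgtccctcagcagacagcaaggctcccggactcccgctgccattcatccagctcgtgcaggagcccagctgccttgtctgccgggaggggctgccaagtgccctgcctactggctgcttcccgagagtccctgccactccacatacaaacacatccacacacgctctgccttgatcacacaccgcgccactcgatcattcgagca
Pgr: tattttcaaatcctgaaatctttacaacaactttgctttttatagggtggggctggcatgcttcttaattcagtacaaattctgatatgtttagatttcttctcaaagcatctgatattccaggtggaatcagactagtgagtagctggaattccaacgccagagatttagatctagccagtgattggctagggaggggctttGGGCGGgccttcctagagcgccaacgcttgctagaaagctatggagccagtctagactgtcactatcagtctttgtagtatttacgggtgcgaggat

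The windows were searched on both strands for the palindromic estrogen response element (GGTCA and TGACC around 3 bases of any kind), its half-site GGTCA, the half-site AGAACA read by progesterone receptors, and the GC box GGGCGG. The palindrome contains the half-site on each strand, so a match to it is also a match to GGTCA. Of 32841 promoter windows of the same length, 0.07% held the palindrome, 40.5% the half-site GGTCA, 19.0% AGAACA, and 35.7% the GC box. With positions counted from the start site, the first *Esr1* window held GGTCA at position 16, and the *Pgr* window held GGGCGG at position -47, whereas the second *Esr1* window held none of the 4. The window of *Esr2*, chr12:76177210-76177509 on the minus strand, held GGTCA at positions -238 and -75, and of the 3 windows of *Cyp19a1*, 1 held it at -81 on the opposite strand, 1 at -223, and 1 not at all. A match to letters is not a measured binding site.

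Signals are scaled intensities, which are the deposited signals after division by the 75th percentile of the array, with the divisors set to a geometric mean of 1. The share of spots well above background was between 47.1% and 52.7% per array, and the lowest scaled signal that the software called well above background was between 79.3 and 132. Known markers were highest where the labels place them for the Arc (*Agrp*, mean 50101 against 402 to 530 elsewhere) and for the VMH (*Nr5a1*, 11928 against 355 to 535). Of the DMH genes, which the study chose on these arrays, *Prdm13* was at 1664 against 26.4 to 84.0 and *Npvf* at 4364 against 91.8 to 255. The LH markers *Hcrt* and *Pmch* were highest in the LH (111361 and 17328) and also high in the DMH (53611 and 13942). The 2 LH arrays were less alike than those of the other nuclei, with a Pearson correlation of 0.938 against 0.972 to 0.982. With the arrays of other nuclei LH1 correlated at 0.907 to 0.936 and LH2 at 0.919 to 0.955, where Arc, VMH, and DMH arrays correlated across nuclei at 0.937 to 0.960. LH1 had 364 outlier spots, against 126 to 161 on the other arrays, and it measured all 4 DMH genes, of which LH2 measured 0. Results of the LH are therefore also given without each of its arrays.

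*Esr1* was highest in the Arc with each of its 3 probes. On the probe printed on 10 spots (A_52_P237077), the signal was 5000.3 on Arc1 and 3474 on Arc2. It was 620.4 and 316 on the VMH arrays, 496 and 498 on the DMH arrays, and 226 and 70.2 on the LH arrays. Both Arc arrays were above all 6 others, the VMH and DMH arrays overlapped, and LH1 and LH2 lay below them. The LH2 value was not well above background on any of its 10 spots, so the LH was measured on 1 of 2 arrays. On the other 7 arrays the 10 spots of the probe had a coefficient of variation between 4.27% and 12.8%.

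The second *Esr1* probe (A_55_P2030883) gave 1671 and 1651 in the Arc, 229 and 299 in the VMH, 331 and 303 in the DMH, and 187 and 139 in the LH, where LH2 was again not well above background. The third (A_51_P474658) gave 1009.8 and 889 in the Arc and 132 and 134 in the DMH. Its values of 85.4 and 45.0 in the VMH and 61.3 and 27.6 in the LH were not well above background, so there it bounds *Esr1* from above. By their mean log2 signals the first 2 probes gave the order Arc, DMH, VMH, LH, but on the 10-spot probe VMH1 was above both DMH arrays, and without VMH2 the VMH lay above the DMH there by a log2 difference of 0.32. The third gave Arc before DMH with no order below, and no step between neighbors after the Arc passed the test (adjusted p = 0.130 to 0.956 in limma). In such bulk tissue, fewer cells with a transcript and less of it per cell cannot be told apart.

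**Figure D1:**
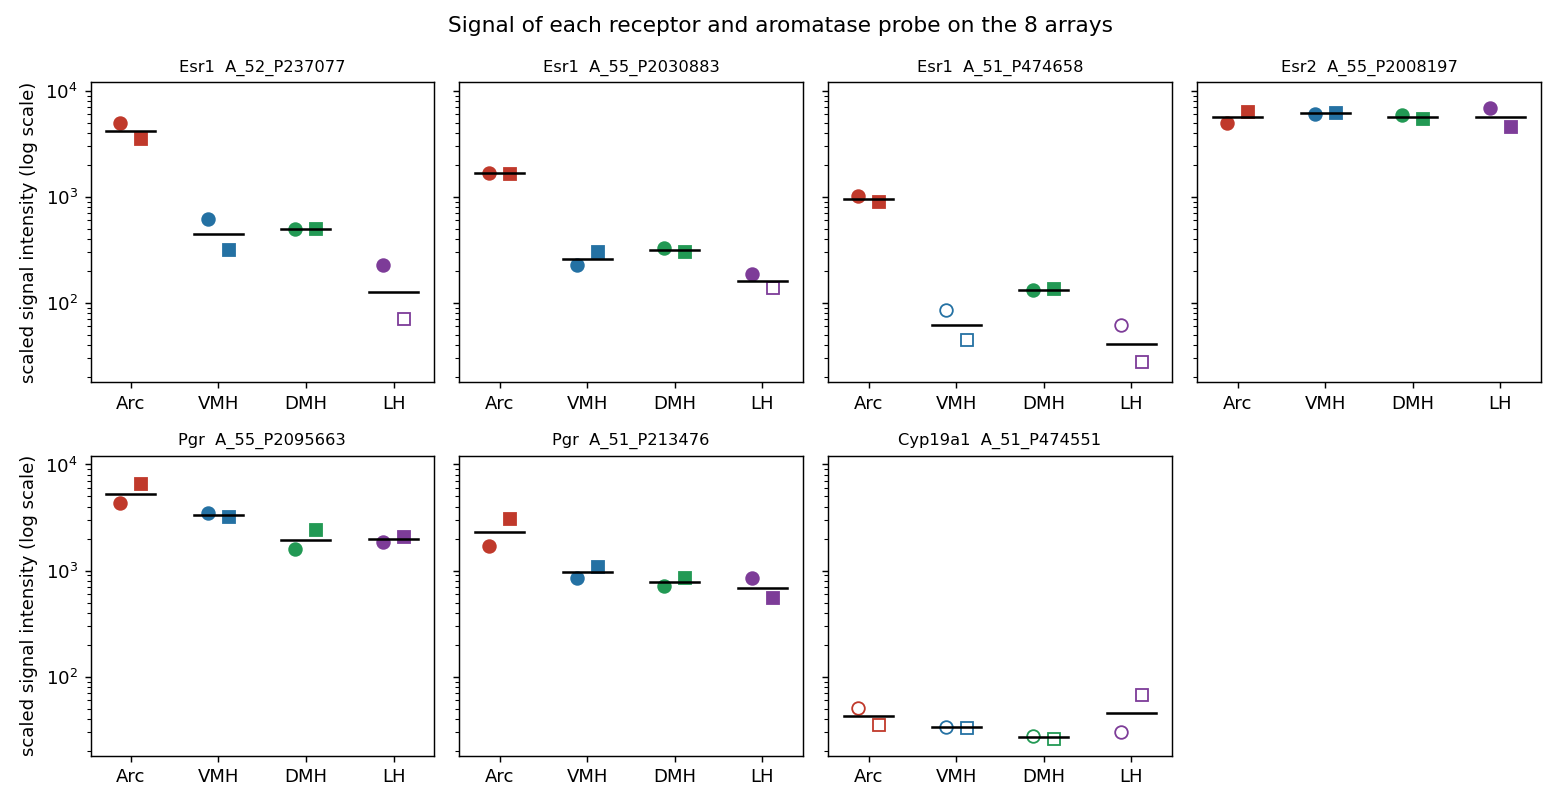
Scaled signal intensity (log axis) of the 7 member probes on each array, with replicate 1 as a circle, replicate 2 as a square, the geometric mean of a nucleus as a line, and open symbols for signals not well above background. The Arc arrays stand above all others with each *Esr1* probe, the *Esr2* arrays lie between 4556 and 6892, and every *Cyp19a1* symbol is open.

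The differences of *Esr1* between the Arc and the other nuclei were tested with limma on log2 signals, fitted to the 28896 probes that both arrays of some nucleus measured above background. Against the VMH, the Arc was higher by a log2 difference of 3.23 ± 0.57 (SE, 2 arrays per nucleus) on the 10-spot probe (9.41-fold, adjusted p = 0.0218 in limma) and by 2.67 ± 0.24 on the second probe (adjusted p = 0.00221 in limma). The third probe gave a fold of at least 9.12 (adjusted p = 0.00452 in limma). Against the LH, the log2 differences were 5.05 ± 0.57 on the 10-spot probe (adjusted p = 0.00390 in limma) and 3.37 ± 0.24 on the second (adjusted p = 0.00118 in limma), and the third gave a fold of at least 9.26 (adjusted p = 0.00247 in limma). The difference of 5.05, which includes the unmeasured LH2, was 3.50 with normexp background correction and 4.20 without LH2. It was 5.89 without LH1, where only the unmeasured LH2 remains. With normexp, the log2 differences to the VMH and LH were 2.01 and 2.18 on the second probe and 2.07 and 2.10 on the third, so the bounds of the third hold for the main setting alone, and all these differences still passed in limma.

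Against the DMH, the probes disagreed in the call but not in direction. The second and the third probe passed, with log2 differences of 2.39 ± 0.24 and 2.83 ± 0.44 (adjusted p = 0.00754 and 0.0340 in limma), which were 1.75 and 1.74 with normexp. In the alternative without scaling between arrays, the second probe did not pass. The 10-spot probe gave 3.07 ± 0.57, with a 95% confidence interval of 1.73 to 4.41, and did not pass (adjusted p = 0.0635 in limma). It did not pass without Arc1, Arc2, VMH1, VMH2, DMH1, or DMH2 either, with log2 differences of 2.80 to 3.33. It did pass when LH1 or LH2 was left out, which gives the same fit for the Arc and the DMH. It also passed when the fit carried a block for replicate number (adjusted p = 0.0322 in limma). Without Arc1, Arc2, DMH1, or DMH2, the second probe no longer passed against the DMH (adjusted p = 0.0739, 0.0718, 0.0572, and 0.0565 in limma), nor did the third (0.216, 0.178, 0.192, and 0.179).

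Of the other 6 *Esr1* calls, 1 was lost when an array was left out. Against the VMH, the 10-spot probe lost its call without Arc1, Arc2, VMH1, or VMH2 (adjusted p = 0.152, 0.0965, 0.0695, and 0.119 in limma, with log2 differences of 2.75 to 3.72). The second and the third probe kept theirs whichever array was left out. Against the LH, all 3 probes passed whichever array was left out. Without LH1, the 10-spot probe was also higher in the VMH and the DMH than on the remaining LH array (adjusted p = 0.0182 and 0.0299 in limma), and the third probe in the DMH (adjusted p = 0.0370 in limma). The remaining array, LH2, measured neither probe.

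*Pgr* was also highest in the Arc, with smaller steps. The first probe (A_55_P2095663) gave 4347 and 6499 in the Arc, 3493 and 3196 in the VMH, 1607 and 2395 in the DMH, and 1843 and 2092 in the LH. Both Arc arrays were above all others, the VMH came next without overlap, and the DMH and LH arrays overlapped. The other probe (A_51_P213476) gave 1711 and 3075 in the Arc, 846 and 1091 in the VMH, 715 and 843 in the DMH, and 853 and 554 in the LH, where the VMH and LH arrays overlapped too. All 8 arrays measured both probes.

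*Pgr* was higher in the Arc than in the LH by a log2 difference of 1.44 ± 0.29 on the first probe (2.71-fold, adjusted p = 0.0266 in limma) and of 1.74 ± 0.35 on the other (3.34-fold, adjusted p = 0.0275 in limma). The differences to the DMH were of like size, 1.44 and 1.56, and did not pass (adjusted p = 0.0813 and 0.115 in limma). Those to the VMH were 0.67 and 1.26 (adjusted p = 0.256 and 0.0975 in limma). Without LH2, the difference to the LH was 1.53 on the first probe (adjusted p = 0.0380 in limma) and 1.43 on the other (adjusted p = 0.0604 in limma), and without LH1 it was 1.35 and 2.05 (adjusted p = 0.0564 and 0.0218 in limma). The first probe lost this call without Arc1 (adjusted p = 0.0650 in limma), Arc2 (0.136), VMH1 or VMH2 (0.0550), or LH1 (0.0564), and the other without Arc2 (0.128), VMH1 or VMH2 (0.0523), DMH1 or DMH2 (0.0535), or LH2.

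No difference of *Esr2* between nuclei passed the test. Its probe gave 4997 and 6356 in the Arc, 6019.75 and 6185 in the VMH, 5938 and 5442 in the DMH, and 6892 and 4556 in the LH. The widest gap was between the 2 LH arrays, and the array means of the nuclei lay between 5676 and 6103. The 6 log2 differences were between -0.11 and 0.12 with an SE of 0.26, and their adjusted p was 0.822 to 0.997 in limma. The 95% confidence interval for the Arc against the VMH ran from -0.73 to 0.50 and that for the VMH against the LH from -0.49 to 0.74, and differences within these bounds are not resolved by 2 arrays per nucleus. The probe carries the accession of 1 *Esr2* transcript, and a signal that other transcripts or sequences might add was not tested.

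*Cyp19a1* stayed near background on all 8 arrays, none of which measured it. Its signals were 50.3 and 35.4 in the Arc, 33.8 and 33.1 in the VMH, 27.5 and 26.1 in the DMH, and 30.2 and 67.3 in the LH, each below the lowest signal measured on its array. No order or fold is given for it, and it entered no test in the main setting, which leaves 6 of 7 member probes tested. In the alternative without a filter on dim probes it was fitted and not called. Aromatase was therefore not detectable with this probe at this background, which sets a bound and does not show that the transcript is absent.

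Over the 6 tested member probes, 3 were called between the Arc and the VMH, all higher in the Arc, where 5.92% of all probes tested were called and 2.4% were higher in the Arc. Between the Arc and the DMH, 2 were called, both higher in the Arc (1.26% of all probes in either direction, 0.533% higher in the Arc), and between the Arc and the LH 5 were, all higher in the Arc (9.34% and 3.33%). The calls belong to 2 genes, since probes of a gene measure the same RNA. The study's methods name the Tukey-Kramer test in general, but for the arrays they give only ratios of signal and state no test. Applied here, the Tukey-Kramer test called 0 of the 6 in each of these comparisons, with 3, 4, and 5 at an unadjusted p under 0.05. Median log2 differences of the 6 probes were 1.96, 1.98, and 2.55 in these comparisons, against 0.01, 0.02, and 0.05 over all probes tested. By the F-test over the 4 nuclei, the 3 *Esr1* probes were called (adjusted p = 0.0114, 0.00227, and 0.00530 in limma, where 8.34% of all probes were), and the *Pgr* probes were just outside (adjusted p = 0.0502 and 0.0645 in limma).

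**Figure D2:**
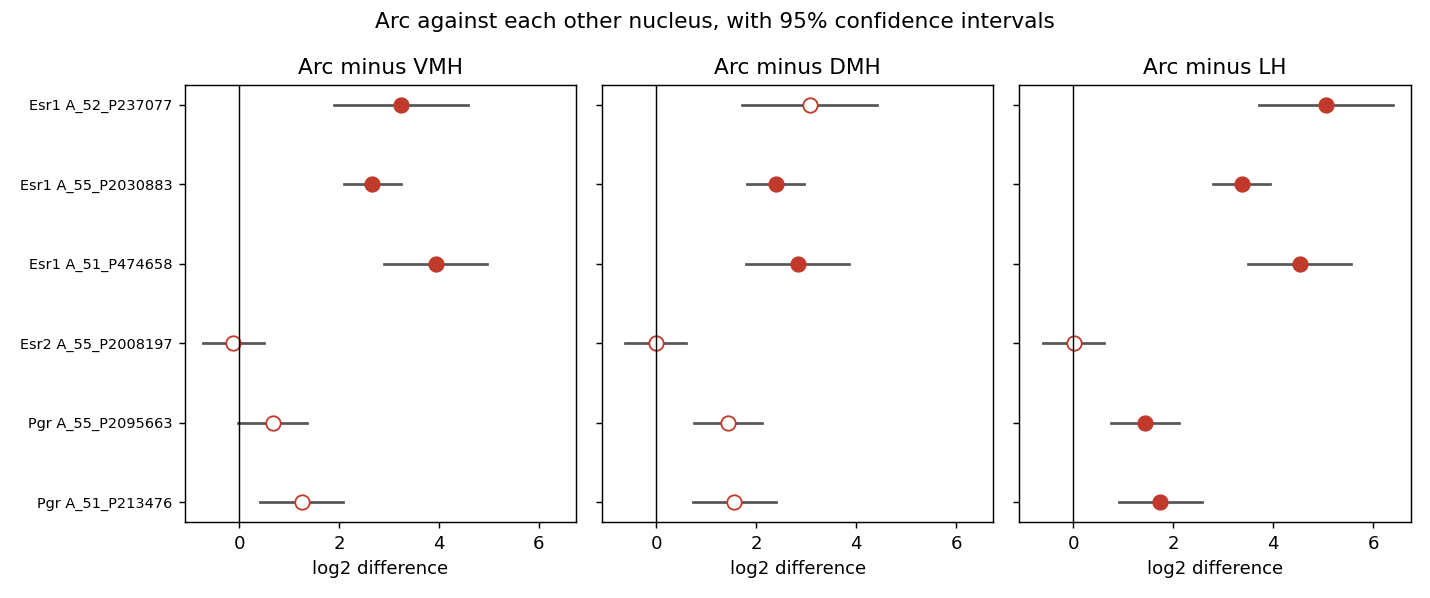
Log2 difference of scaled signal between the Arc and each other nucleus for the 6 tested member probes, with 95% confidence intervals from limma, filled where the adjusted p was under 0.05. The *Esr1* intervals lie to the right of 0 in every panel and those of *Esr2* span 0.

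Among the VMH, DMH, and LH, limma called 0 of the 6 member probes in each comparison, where 2.04% (VMH against DMH), 5.28% (VMH against LH), and 0.924% (DMH against LH) of all probes were called. At an unadjusted p under 0.05, limma had 2, 3, and 3 member probes, and both limma with trended and robust moderation and the Tukey-Kramer test called 0. The arrays of the Arc did not overlap with those of the VMH, DMH, or LH for 5 of 6 member probes each, where 54.9%, 45.1%, and 55.1% of all probes did not overlap. For the VMH against the DMH it was 5 of 6 (46.1% of all probes), and for the LH against the VMH and against the DMH 3 of 6 each (48.8% and 45.4%).

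Of 13 other genes for steroid receptors and their relatives, 11 were tested and 2 were called by the F-test, *Esrra* and *Esrrb*, where 8.34% of all probes were. The count was 4 without LH2, 1 without DMH1 or DMH2, and 1 with the one-way test. *Gper1*, a membrane receptor for estradiol, was measured on none of the 8 arrays. *Esrra*, an orphan receptor that resembles the estrogen receptors in sequence and binds no known estrogen, was highest in the LH with 1038 and 1169, against 279 and 278 in the Arc. *Esrrb* was well above background on both LH arrays (251 and 269.5) and on Arc2 (137). No gene of the list was higher in the Arc than in another nucleus at the threshold of limma. The 4 of 11 lower in the Arc, against the LH alone, were *Paqr6*, *Paqr8*, *Esrra*, and *Esrrg* (6.02% of all probes were lower there), the *Paqr* genes and *Esrrg* named after their values were seen, and *Paqr6* and *Paqr8* encode membrane receptors of progestins. Without LH1, *Esrrg* lost this call (adjusted p = 0.0651 in limma), and without LH2 *Esrrg* and *Paqr6* did (adjusted p = 0.0551 and 0.107 in limma). At an unadjusted p under 0.05, limma had 6, 5, and 6 of the 11 genes for the Arc against the VMH, DMH, and LH in either direction, and limma with trended and robust moderation and the Tukey-Kramer test called 0 higher in the Arc. Median log2 differences of the list were -0.62, -0.12, and -0.69.

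Of 27 genes listed for proteins that make and change steroids, 26 were on the array and 15 were tested, of which 3 were called by the F-test (8.34% of all probes). *Cyp11a1*, which starts steroid synthesis from cholesterol, and the *Hsd3b* and *Akr1c* genes listed were measured on no array. *Tspo*, a mitochondrial protein linked to cholesterol import, was higher in the Arc (1186 and 1000.6) than in the VMH (mean 254) and the LH (mean 365), with log2 differences of 2.10 ± 0.26 and 1.58 ± 0.26 (adjusted p = 0.00688 and 0.0152 in limma), and against the DMH its 1.45 did not pass (adjusted p = 0.0615 in limma). *Srd5a3*, of the steroid 5α-reductase family, and *Hsd17b7*, of the 17β-hydroxysteroid dehydrogenase family, were highest in the VMH, with means of 1513 and 829, and lower in the Arc by log2 differences of -1.33 ± 0.22 and -1.45 ± 0.23 (adjusted p = 0.0184 and 0.0161 in limma). Neither passed for the Arc against the DMH (-0.048 and -0.68, adjusted p = 0.982 and 0.337 in limma) or the LH (-0.58 and -0.90, adjusted p = 0.153 and 0.0602 in limma). These were the 3 genes called, and the count was 0 without Arc1, VMH1, or VMH2, 1 without Arc2, DMH1, or DMH2, and 5 without LH1. The one-way test called 0, with 6 at an unadjusted p under 0.05. Lower in the Arc than in the LH were *Srd5a1* and *Hsd11b1*, an enzyme of glucocorticoid activation, both named after their values were seen. Without LH1, *Srd5a1* lost this call (adjusted p = 0.0532 in limma), and without LH2 *Hsd11b1* did (adjusted p = 0.0560 in limma).

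None of the genes of proteins through which the receptors act passed the test. All 25 coregulator and chaperone genes were measured on all 8 arrays, among them *Ncoa1*, a coactivator of estrogen and progesterone receptors, *Ncor1*, a corepressor, and *Hsp90aa1*, which holds unbound receptors. The F-test of limma called 0 of 25 (8.34% of all probes), with 2 at an unadjusted p under 0.05. Limma with trended and robust moderation called 1 by the F-test, and the one-way test called 0. Median log2 differences of the list for the Arc against the VMH, DMH, and LH were -0.0036, 0.13, and -0.01.

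Genes known in the hypothalamus for answering to estradiol or differing between the sexes passed it more often than not. Of 24 listed, all were tested and 17 were called by the F-test (8.34% of all probes), whereas the one-way test called 8. Of these 17, the mean was highest in the Arc for 9, in the DMH for 4, and in the VMH and LH for 2 each. Against the VMH, 11 were higher and 1 lower in the Arc, against the DMH 5 and 3, and against the LH 9 and 4. The 11 include *Trh*, which no Arc or VMH array measured, and are 10 without it. The Tukey-Kramer test called 1, 0, and 0 genes in these comparisons, with 12, 12, and 14 at an unadjusted p under 0.05. Of all probes, 2.4%, 0.533%, and 3.33% were higher in the Arc in these comparisons and 3.52%, 0.727%, and 6.02% lower. Of the 13 calls against the LH, 11 were kept without LH1 and 12 without LH2, with *Th* among those lost without LH1 (adjusted p = 0.0587 in limma). The list mixes peptides that mark single nuclei with receptor targets, and its members were picked with results of these arrays known, so its counts are no independent sign of estradiol action. The steroid state of the mice was not measured.

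The 5 genes of the list with the lowest F-test p were all neuropeptides or a transmitter enzyme. *Kiss1*, the kisspeptin gene of Arc neurons that drive gonadotropin release, gave 23170.2 and 16617 in the Arc and 194 to 299.7 on the other 6 arrays, a log2 difference of 6.08 to 6.38 (SE 0.28, adjusted p at most 0.000351 in limma). *Tac2*, the neurokinin B gene that the same neurons carry, gave 13623 and 10678 in the Arc, 3101 to 3601 in the DMH and LH, and 124 and 131 in the VMH, where VMH1 was not well above background. *Th*, the first enzyme of dopamine synthesis, was higher in the Arc than in the VMH by a log2 difference of 3.22 ± 0.23 and than in the LH by 1.13 ± 0.23 (adjusted p = 0.000966 and 0.0268 in limma), and against the DMH its 0.59 did not pass (adjusted p = 0.406 in limma). *Tac1*, the substance P gene, went the other way and was lower in the Arc than in the VMH, DMH, and LH, with log2 differences of -3.18, -2.02, and -3.70 (adjusted p at most 0.0126 in limma). *Trh*, thyrotropin-releasing hormone, exceeded the Arc at least 61.1-fold in the DMH and at least 50.2-fold in the LH (adjusted p = 0.000374 and 0.000351 in limma), since neither Arc array measured it.

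*Greb1*, a direct target of estrogen receptor α in other tissues, was chosen from this list after its values were seen. It gave 442 and 662 in the Arc and was well above background elsewhere only on DMH2 (111). The Arc exceeded the VMH at least 5.04-fold and the LH at least 4.53-fold (adjusted p = 0.0250 and 0.0169 in limma), and against the DMH its log2 difference of 2.37 ± 0.49 did not pass (adjusted p = 0.0882 in limma).

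**Figure D3:**
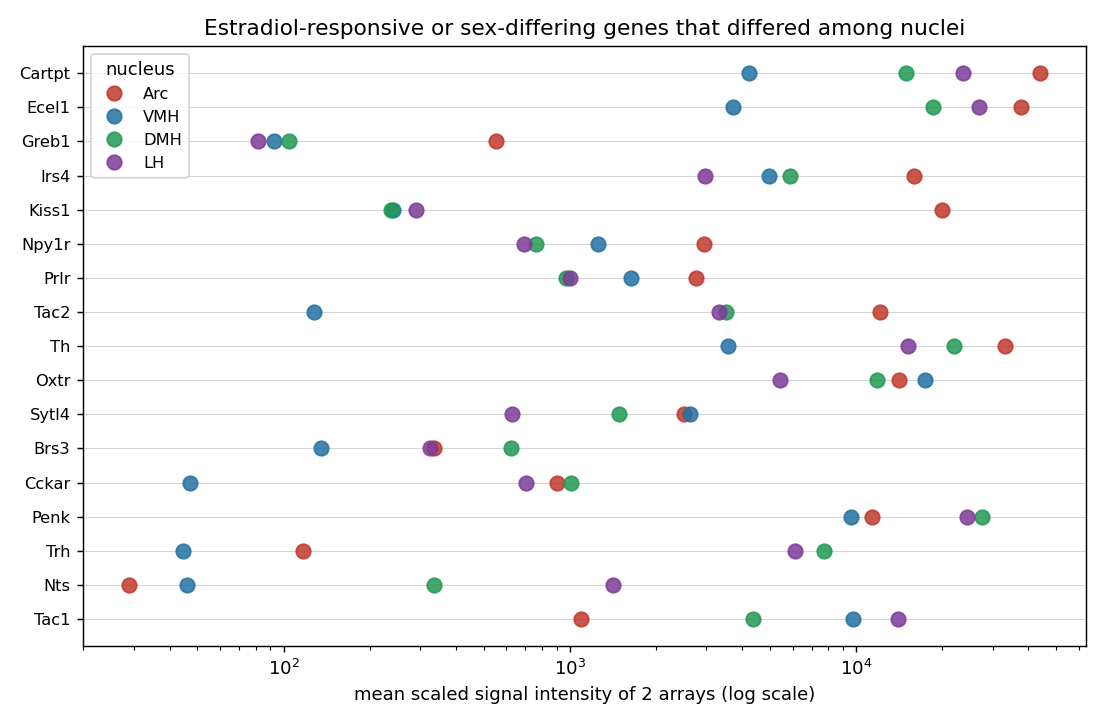
Mean scaled signal of 2 arrays (log axis) in each nucleus for the 17 genes of the estradiol-responsive or sex-differing list called by the F-test, grouped by the nucleus with the highest mean, with signals not well above background drawn at their value. Of these, 9 genes peak in the Arc, and *Kiss1* lies above each other nucleus by a log2 difference of at least 6.08, while *Trh* peaks in the DMH and *Tac1* in the LH.

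The genes whose log2 signals followed each receptor most closely over the 8 arrays, among 13096 genes, are given as a description, since the points share arrays and scaling. For *Esr1* they were *Rilpl2*, *Ptpro*, *Mia*, *Mfap2*, and *Gpc4*, with Pearson correlations of 0.971 to 0.983. *Mia* was at 7011 in the Arc and 166 to 577 elsewhere, and *Gpc4*, a cell surface proteoglycan, at 3048 and 360 to 814. For *Pgr* they were *Bend7*, *Prlr*, *Fam174c*, *Sertm1*, and *Noc4l* (0.955 to 0.984), and *Prlr*, the prolactin receptor, had means of 2756 (Arc), 1642 (VMH), 970.4 (DMH), and 1000.1 (LH). For *Esr2* they were *Ncoa1*, *Ranbp10*, *Abcc5*, *Lenep*, and *Tyw3* (0.935 to 0.989), with means over the nuclei of 1113 to 1241 for *Ncoa1* and of 177 to 258 for *Tyw3*. No difference of *Esr2* between nuclei passed, and its widest gap was between LH1 and LH2. Its correlations therefore follow differences between single arrays more than between nuclei.

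Between members, the *Esr1* probes correlated with each other at 0.952 to 0.967 and the *Pgr* probes at 0.888. *Esr1* and *Pgr* probes correlated at 0.698 to 0.912 over the same 8 arrays, and the 2 Arc arrays were highest for both. *Esr2* correlated with the probes of the others at 0.014 to 0.276.

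Markers of other cells moved with the Arc and the LH. *Rax* and *Vim*, which mark tanycytes along the third ventricle, exceeded every other nucleus in the Arc (adjusted p at most 0.0353 in limma), though *Vim* did not pass against the LH without LH1 (adjusted p = 0.0665 in limma), *Ccdc153* was not called, and *Foxj1*, the defining gene of ciliated ependymal cells, was measured nowhere. The summed signal of these 4 genes was 4095 and 4607 in the Arc and 1281 to 2054 elsewhere. All 6 oligodendrocyte markers were lower in the Arc than in the LH, with sums of 11574 and 18914 in the Arc and 104905 and 112135 in the LH. Of 4 neuron markers, *Rbfox3* was lower in the Arc than in the VMH and the LH, with means of 3169, 11474, and 7294, and *Syt1* was lower than in the LH (5133 and 12074, adjusted p = 0.0211 in limma), whereas *Snap25* and *Stmn2* (fitted without LH1, an outlier spot) were called in no comparison of the Arc. Without LH2, *Rbfox3* did not pass against the LH (adjusted p = 0.0602 in limma). Of 5 astrocyte markers, only *Gfap* was called between the Arc and the VMH, higher in the Arc with means of 5036 and 1256 (adjusted p = 0.0124 in limma). The median log2 difference of the 5 was -0.084 there. Their summed signals overlapped, with 15123 and 20176 in the Arc and 18322 and 17021 in the VMH. Against the LH, 1 of 5 astrocyte markers, *Aldh1l1*, and 1 of 3 endothelial markers, *Flt1*, were lower in the Arc. The 4 microglia markers had median log2 differences of -0.0033, 0.20, and -0.35 for the Arc against the VMH, DMH, and LH. The part of these cells in the *Esr1* and *Pgr* differences was not tested.

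Of the 6 anterior pituitary markers, *Prl*, *Gh*, *Tshb*, and *Pou1f1* were measured on no array, and *Cga* was measured on Arc1 alone (1425). *Lhb* was measured on VMH2, DMH1, and DMH2. The oxytocin gene *Oxt*, from neighboring magnocellular neurons, was at 6559 on Arc1, 8332 on LH2, 1242 on VMH2, and 848 on Arc2, and was measured on none of the other 4 arrays. *Crh*, a gene of the neighboring paraventricular nucleus, was measured on neither Arc array, and its means were 2284 in the DMH and 4277 in the LH (adjusted p = 0.00936 and 0.00239 for the Arc against them in limma). The study reports no contamination of its dissected nuclei by surrounding ones, from quantitative PCR of *Agrp*, *Nr5a1*, *Hcrt*, and *Crh*. The part of pituitary and other neighboring tissue in the receptor values on these arrays was not tested.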

How the data were processed

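Expression was measured in the Arc, VMH, DMH, and LH, 2 arrays each. The authors deposited, for every spot, the intensity that Agilent Feature Extraction gave, on a linear scale, with background subtracted, spatial trends removed, low values replaced by a minimum, and no scaling between arrays. The file headers give version 10.7.3.1 and the labels 11.5.1.1. The labels name Cy3 as the dye, whereas the label protocol names Cy5, read in the red channel that the files contain. A table for all arrays, also deposited, holds this intensity averaged per probe, since at least 99.7% of its values equalled that mean to within 0.51.

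Spots that the software marked as outliers were left out, repeat spots were averaged by probe, arrays were scaled by their 75th percentile, and log2 was taken. Symbols were given through RefSeq accessions of GRCm38.p6 to 26762 of 28390 probes with an accession (94.3%). One mean per nucleus was fitted with limma 3.58.1 in R 4.3.3 (4 residual and 3.02 prior degrees of freedom), with Benjamini-Hochberg adjustment over 28896 probes and a threshold of 0.05. The main probe of a gene was that measured on most arrays, then the brightest. A probe measured on neither array of a nucleus gave only a bound. In the fits, such signals kept their value. The script was tested on simulated data. The number of arrays limits the precision.

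The text names all member probes, *Gper1*, nucleus and cell type markers, up to 5 called genes with the lowest F-test p of each list, and the 5 genes most like each member. Outside this rule it names some further genes of the lists, several of them after their values were seen. The members and lists were chosen with earlier results of these data known. Some genes of the lists are not reported here. Replicate numbers coincide with the row of the slide. Deviations of same-numbered arrays correlated at -0.03 to 0.26 over the 6 pairs of nuclei and no source says that a number marks a mouse, so the number was a block only in an alternative. Alternatives were no scaling, quantile normalization, normexp with an offset of 50 on median signals, the deposited table, outlier spots kept, no filter, a filter on all 8 arrays, dim signals raised to the lowest measured, trended and robust moderation, the replicate block, fits of only 2 nuclei, the Tukey-Kramer test, and each array left out.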

Additional observations from a re-analysis of the deposited data

How the results depend on the processing

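The Arc was higher than each other nucleus for the *Esr1* and *Pgr* probes in all 291 comparisons under the alternatives, whereas calls moved. Many of the 291 repeat the main estimate and could not change its sign, and all come from the same 8 arrays. Alternatives that change only the test or the filter keep the log2 difference, as does leaving out an array of a nucleus not compared. For the main *Esr1* probe, the Arc against the VMH was 3.23 without DMH1, DMH2, LH1, or LH2, as in the main setting. Calls among the member probes, 10 of 36 in the main setting, were 3 with only probes measured on all 8 arrays, which leaves out *Esr1*, and 0 with Tukey-Kramer, and 5 to 13 with an array left out (5 without Arc2, 6 without Arc1). Member probes called by the F-test, 3, were 5 with normexp, with dim signals raised, and with trended and robust moderation, 1 with the one-way test, and 2 to 4 with an array left out. Without scaling, the median of all probes moved to -0.26, -0.46, and -0.11 for the Arc against the VMH, DMH, and LH, and the share of calls that were higher in the Arc to 26.2%, 19%, and 27.5%, from 40.5%, 42.3%, and 35.6%. Without a filter the share against the DMH was 52.8%. Over all probes, the 1712, 364, and 2700 calls in these comparisons ranged from 2 to 2270, 4 to 517, and 30 to 3615 (lowest with Tukey-Kramer), and from 400 to 2517, 80 to 633, and 694 to 3642 with an array left out. With an array left out, the 590, 1525, and 267 calls for the VMH against the DMH, the VMH against the LH, and the DMH against the LH ranged from 170 to 891, 276 to 2745, and 32 to 1271, and the 2410 of the F-test from 872 to 3786 (529 with the one-way test). The F-test counts of the lists were 1 to 5 of the receptors (2 in the main setting), 0 to 5 of the enzymes (3), 0 to 1 of the coregulators (0), and 8 to 18 of the estradiol list (17).

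For the main *Esr1* probe, the Arc against the DMH (3.07) passed with quantile normalization (3.15), normexp (2.59), dim signals raised, trended and robust moderation, and the fit of 2 nuclei (each 3.07). Tukey-Kramer ended its calls against the VMH (3.23, adjusted p = 0.405) and the LH (5.05, adjusted p = 0.174). For the main *Pgr* probe, the Arc against the LH (1.44) did not pass without scaling (1.28), without a filter, in the fit of 2 nuclei, or with Tukey-Kramer (each 1.44), and the Arc against the DMH passed with normexp (1.30), the filter on all 8 arrays, and trended moderation (each 1.44). The other *Pgr* probe passed against the DMH under none of the 12 alternatives (adjusted p = 0.0522 or more in limma), and against the LH it did not pass without scaling (1.58), in the fit of 2 nuclei, or with Tukey-Kramer (each 1.74). *Esr2* and *Pgr* differences near 0 turned sign. *Esr2* gave -0.15 without scaling and -0.013 with normexp for the Arc against the LH, and -0.11 without scaling and -0.0065 with quantile normalization for the VMH against the DMH. *Pgr* in the DMH against the LH gave 0.32 without scaling, 0.050 with quantile normalization, 0.044 with normexp, and 0.0060 with the table or outliers kept. The cause was not tested.

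With an array left out, the main *Esr1* probe ranged from 2.75 to 3.72 for the Arc against the VMH, 2.80 to 3.33 against the DMH, and 4.20 to 5.89 against the LH. Among the other nuclei it ranged from -0.65 to 0.32 for the VMH against the DMH, 0.97 to 2.66 for the VMH against the LH, and 1.14 to 2.82 for the DMH against the LH. The main *Pgr* probe ranged from 1.15 to 1.73 for the Arc against the LH and -0.29 to 0.29 for the DMH against the LH, where its other probe ranged from -0.14 to 0.49. *Esr2* ranged from -0.29 to 0.059, -0.19 to 0.16, and -0.29 to 0.31 for the Arc against the VMH, DMH, and LH, -0.18 to 0.42 for the VMH against the LH, and -0.28 to 0.32 for the DMH against the LH.

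With the replicate number as a block, the main *Esr1* probe passed between the Arc and the DMH (3.07, adjusted p = 0.0322 in limma), and 11 member calls were made. Whether a number stands for 1 mouse is not given in the sources used here. Signal over background limits the *Esr1* values of the LH and, on 1 probe, of the VMH, and *Cyp19a1* throughout.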
